A study of Mus musculus with 4 samples.

Results

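The genes described here carry fatty acids and lipoprotein lipids into cells, release them from triglyceride and hold them inside the cell. They are the lipases Lpl and Lipc, the fatty acid receptor Cd36, the fatty acid-binding proteins Fabp1, Fabp2, Fabp4 and Fabp5, the lipid droplet coat Plin2, and Scarb1 and Pltp, which serve high-density lipoprotein. Members were chosen by gene symbol: every probe set whose only annotated symbol was one of the 10 names was taken. This gave 12 of the 12422 probe sets that were not controls, reading 9 of 8251 genes with a symbol. Lipc was not analysed here. Lpl and Cd36 were read by 2 probe sets each, as was Fabp1, and the other 6 genes by 1.

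Total liver RNA was hybridised to Affymetrix MG_U74Av2 arrays, 2 from wild-type mice and 2 from PEPCK-TAg transgenic mice. All animals were male B6SJL hybrids aged 58 to 60 days, and after weaning both groups were fed 4 weeks on chow with 10% protein and 70% carbohydrate. In PEPCK-TAg mice the promoter of the phosphoenolpyruvate carboxykinase gene, which is active in hepatocytes and kidney, drives both SV40 oncoproteins, large T and small t, and wild-type mice lack the transgene. The design speaks of duplicate measurements. Whether each array had an animal of its own is not stated, so p-values cover the spread between arrays alone, and that spread may be technical.

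Each value is a MAS5 signal, a linear brightness summarised over the probes of a probe set. The 4 arrays had the same trimmed mean of 250.2, and their median signals lay between 75.8 and 89.1. Alb, the defining hepatocyte gene, had signals of 12446 to 16723. Of 7453 probe sets bright enough to be tested, 477 (6.4%) were higher in PEPCK-TAg and 229 (3.07%) were lower by limma, with Benjamini-Hochberg adjustment and a threshold of 0.05. Together these were 9.47% of the probe sets, and 9.84% of the 5650 genes when each gene is read by its brightest probe set. The groups did not overlap for 56.5% of the probe sets tested, with PEPCK-TAg above wild type for 30.2%. Log2 changes below are PEPCK-TAg minus wild type on the scale log2(signal + 13), which understates the change of dim probe sets, and an exact permutation test of 2 arrays against 2 cannot give a p below 0.333.

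Lipoprotein lipase works on the vessel wall, where it splits the triglyceride of chylomicrons and very low-density lipoprotein so that the tissue can take up the fatty acids. Muscle, fat and macrophages make it, whereas adult hepatocytes normally keep the gene low after its activity around birth. The liver instead uses hepatic lipase, takes up remnant particles and free fatty acids, binds the acids to Fabp1 and stores any surplus in droplets coated by Plin2. Scarb1 takes cholesterol ester from high-density lipoprotein, and Pltp moves phospholipid between lipoproteins.

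Among the members tested, the lipase gene Lpl was the gene that changed. Of the 10 member probe sets tested, 2 were called higher, both of Lpl, and 0 lower. The dimmer of these reached the test only through its PEPCK-TAg arrays, so the rise of Lpl rests on the brighter one alone. By comparison, 6.4% of all tested probe sets were called higher, 3.07% lower and 9.47% in either direction. Counted by gene, 1 of 8 was called, beside 9.84% of all genes, so the number of calls is not read as a property of the group. Fabp1, Fabp2, Fabp4, Fabp5, Plin2, Scarb1 and Pltp did not pass. Cd36 was too dim to be tested. The median log2 change of the 8 member genes was -0.06, beside 0.01 for all genes tested.

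**Figure D1:**
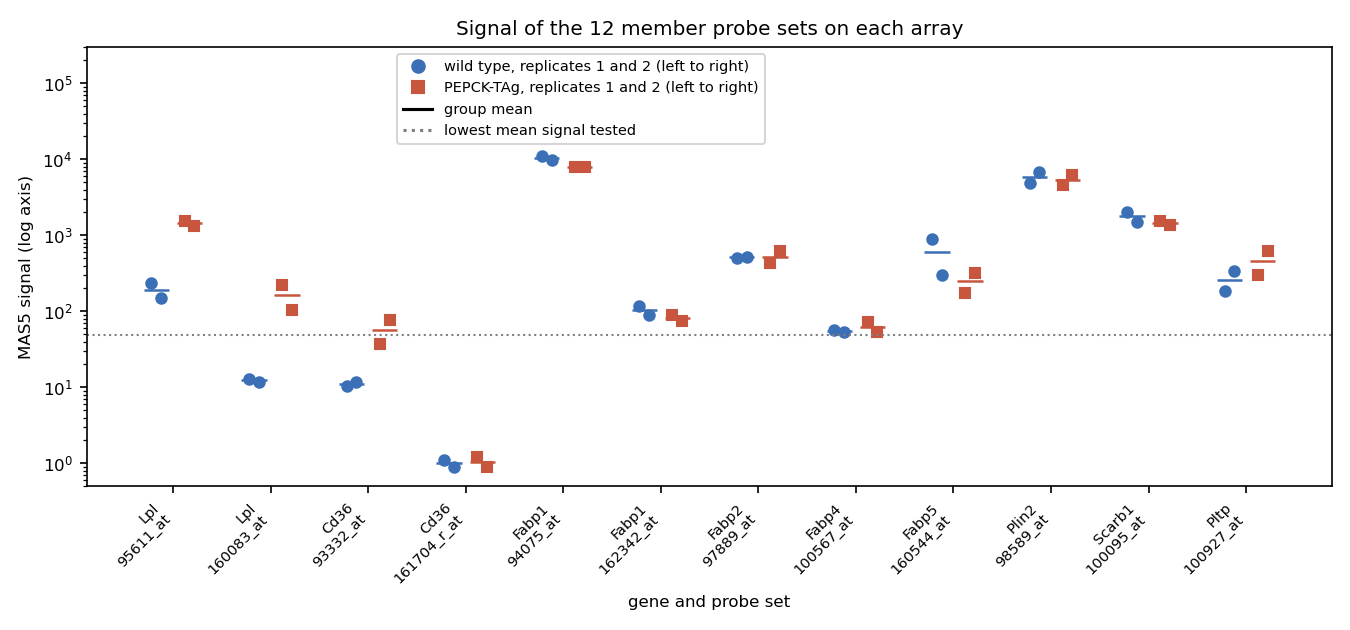
Signal of each of the 12 member probe sets (horizontal axis) on each array, on a log axis, with circles for wild type, squares for PEPCK-TAg and bars for group means of 2 arrays. The dotted line marks the lowest mean signal that was tested, 48.1. For Lpl both PEPCK-TAg squares stand well above the wild-type circles in each probe set, 1333 and 1529 against 150.2 and 233 in the brighter one, while Fabp1, Fabp2, Plin2 and Scarb1 lie close together.

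Lpl was read at 233 and 150.2 on wild-type replicates 1 and 2, against 1529 and 1333 on PEPCK-TAg replicates 1 and 2 by its brighter probe set, 95611_at. The lower PEPCK-TAg array exceeded the higher wild-type array severalfold, a gap between groups of the kind that 30.2% of probe sets showed in this direction at any size. Group means were 192 ± 58.5 (SD, n = 2) and 1431 ± 139 (SD, n = 2), a ratio of 7.47. The log2 change was 2.85 ± 0.23 (SE), with a limma adjusted p of 0.00179 (Benjamini-Hochberg), and it ranked 46 among the rises of 7453 probe sets.

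The second Lpl probe set, 160083_at, was dim in wild type, at 13.0 and 11.9, and gave 223 and 103 on PEPCK-TAg replicates 1 and 2. Wild-type arrays lay far under the lowest mean signal tested, so this probe set passed the filter only through its PEPCK-TAg values. Its PEPCK-TAg replicate 2 stood at 0.464 times replicate 1, with a mean of 163 ± 84.4 (SD, n = 2) against 12.4 ± 0.78 (SD, n = 2) in wild type. Its fitted log2 change, 2.70 with an offset of 13 and 1.68 with an offset of 52, had to be positive for a probe set that passed in this way. It is given as a description and not as support for the brighter probe set.

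Leaving out any 1 array kept the change of 95611_at between 2.55 and 3.14, and its highest adjusted p (limma with Benjamini-Hochberg) was 0.00476. The dimmer set, 160083_at, fell under the filter when either PEPCK-TAg array was dropped, and then 1 member probe set was called higher.

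**Figure D2:**
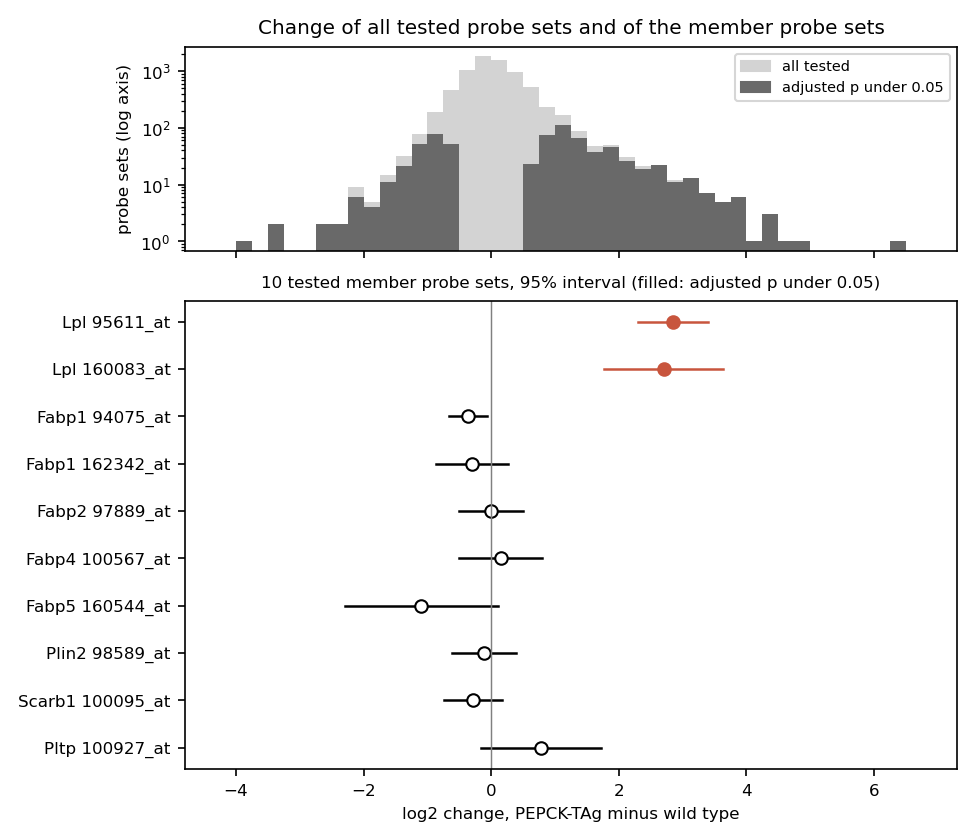
Log2 change of PEPCK-TAg against wild type for all 7453 tested probe sets (upper panel, number of probe sets on a log axis, called ones dark) and for the 10 tested member probe sets (lower panel, points with 95% intervals of the limma fit). Lpl 95611_at, at 2.85, lies in the right tail of the distribution, as does 160083_at, which was tested only through its PEPCK-TAg signal, and the intervals of all other members except Fabp1 94075_at cross 0.

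Other genes that act on or beside Lpl were taken from a list of lipases and their cofactors, of which 14 of 23 genes were measured. None of the 14 rose and 3 fell, where 6.83% of all genes were higher and 3.01% lower. Apoa5, a plasma activator of triglyceride hydrolysis by Lpl, had signals of 6811 and 7188 in wild type against 2925 and 2993 in PEPCK-TAg. It fell by 1.24 on the log2 scale (SE 0.13; adjusted p = 0.0032, limma with Benjamini-Hochberg), and its other probe sets fell by 1.18 and 1.54.

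Apoa4, an apolipoprotein of triglyceride-rich particles, had 4143 and 4668 in wild type against 1226 and 2105 in PEPCK-TAg, and Lmf1, which matures lipases in the endoplasmic reticulum, 411 and 376 against 251 and 217. Their log2 changes were -1.45 and -0.72 (adjusted p = 0.0196 and 0.0478, limma with Benjamini-Hochberg). The call of Lmf1 was lost in each of the 4 fits that left out 1 array, and that of Apoa4 without wild-type replicate 1 or wild-type replicate 2.

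Of genes whose products bind Lpl directly, Apoc2 and Angptl4 did not pass. Apoc2, the cofactor that Lpl needs, had 1973 and 2269 in wild type against 2877 and 2373 in PEPCK-TAg (adjusted p = 0.295, limma with Benjamini-Hochberg). Angptl4, an inhibitor of Lpl, had 292 and 451 in wild type against 225 and 221 in PEPCK-TAg (adjusted p = 0.125, limma with Benjamini-Hochberg). Its other tested probe sets had log2 changes of 0.14 and -0.73 and did not pass (adjusted p = 0.762 and 0.119, limma with Benjamini-Hochberg). Intracellular lipases did not pass either: Pnpla2, which opens the breakdown of droplet triglyceride, had a log2 change of -0.21, the lysosomal Lipa -0.01, and Mgll, the monoglyceride lipase, -0.90 (adjusted p = 0.592, 0.984 and 0.102, limma with Benjamini-Hochberg). The list median was -0.37.

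In whole liver RNA, more cells of a type and more RNA per cell cannot be told apart, so markers of the cells that make Lpl were read beside it. Of 18 macrophage and Kupffer cell markers 15 were on the array and 14 were measured. Of these 6 rose and 0 fell, where 6.83% of all genes were higher and 3.01% lower. Their median log2 change was 1.09. Their summed signal was 3663 and 6630 on wild-type replicates 1 and 2, against 11785 and 15557 on PEPCK-TAg replicates 1 and 2. These values use the brightest probe set of each gene. A second tested probe set had a log2 change of -0.93 for Csf1r and 0.21 for C1qb. Neither passed (adjusted p = 0.131 and 0.617, limma with Benjamini-Hochberg). Mpeg1, a macrophage pore-forming protein, rose by 3.15 and Clec4f, a Kupffer cell lectin, by 1.34 on the log2 scale (adjusted p = 0.000643 and 0.0353, limma with Benjamini-Hochberg), whereas Adgre1, which encodes F4/80, had 91.4 and 186 in wild type against 115 and 261 in PEPCK-TAg.

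Of the 14 macrophage genes, 13 were higher on wild-type replicate 2 than on replicate 1, and 13 were higher on PEPCK-TAg replicate 2 than on replicate 1. No share of all probe sets with this order is given. The order is therefore not read as a property of these genes, and it is not set against that of Lpl. The part of macrophage RNA in the Lpl change was not tested.

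No adipocyte or muscle marker passed beside Lpl. Of 12 adipocyte genes 9 were on the array, 4 were measured and 0 passed by limma, or at an unadjusted p under 0.05 0 were higher and 2 lower. The defining gene Adipoq read 25 and 21.3 in wild type against 34.7 and 20.3 in PEPCK-TAg and Retn 5.0 to 9.4, all under the lowest mean signal tested. Not all markers were that dim. The leptin gene Lep read 424 and 269 in wild type against 454 and 325 in PEPCK-TAg by its brighter probe set. Lipe read 71.7 and 63.2 against 42.5 and 73.3. The summed signal of the 4, which Thrsp and Cebpa dominate, both also liver genes and Cebpa also in a list of nuclear receptors below, was 5232 to 7626 in wild type against 3945 to 4089 in PEPCK-TAg. Of 12 muscle genes 3 were measured and 0 passed by limma or at an unadjusted p under 0.05, with summed signals of 168 and 236 in wild type against 210.2 and 226 in PEPCK-TAg. The muscle actin gene Acta1 read 3.6 to 9.4. Among the measured genes, Ckm read 97.3 and 121 in wild type against 77.9 and 72 in PEPCK-TAg, and Myl1 58.6 and 52.1 against 51.6 and 81.9. Actc1 read 12.4 and 63 against 80.7 and 71.7 by its brighter probe set. The other Actc1 probe set, too dim to be tested, read 17 and 8.2 in wild type against 1.4 and 1.4 in PEPCK-TAg.

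Markers of dividing cells were also higher, though not by every probe set. A second tested probe set of Mki67 read 99.1 and 81.9 in wild type against 70.1 and 75.1 in PEPCK-TAg. It did not pass (adjusted p = 0.516, limma with Benjamini-Hochberg), whereas a second tested probe set of Plk1 rose by 1.09 on the log2 scale. Ccnb2, Pcna, Mcm5, Prc1 and Plk1, which were above the lowest signal tested in wild type too, all rose, with Pcna, the clamp of DNA replication, at 382 and 380.4 in wild type against 2517 and 1751 in PEPCK-TAg. By their brightest probe sets, Mki67, Top2a, Cdk1 and Birc5 were tested only through their PEPCK-TAg signals. Bub1 and Mcm6 were too dim to be tested, with Mcm6 overlapping between groups. The summed signal of the 9 tested was 994 and 878 on wild-type replicates 1 and 2, against 8370 and 6542 on PEPCK-TAg replicates 1 and 2. It includes the genes tested only through their PEPCK-TAg signals, so its size is not read as a result. Endothelial cells, which hold Lpl at their surface, had 12 measured markers, of which 0 passed by limma and 0 were higher and 3 lower at an unadjusted p under 0.05. Their summed signal was 3368 and 3617 in wild type against 2197 and 3256 in PEPCK-TAg. Of 8 measured stellate cell and matrix genes 1 rose, the collagen gene Col3a1. Of all genes 6.83% were called higher, so this count is not read as a property of the list. A second tested probe set of Col3a1 overlapped between groups and did not pass, with a log2 change of 0.50 (adjusted p = 0.392, limma with Benjamini-Hochberg). The part of dividing, endothelial or stellate cells in the Lpl change was not tested.

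**Figure D3:**
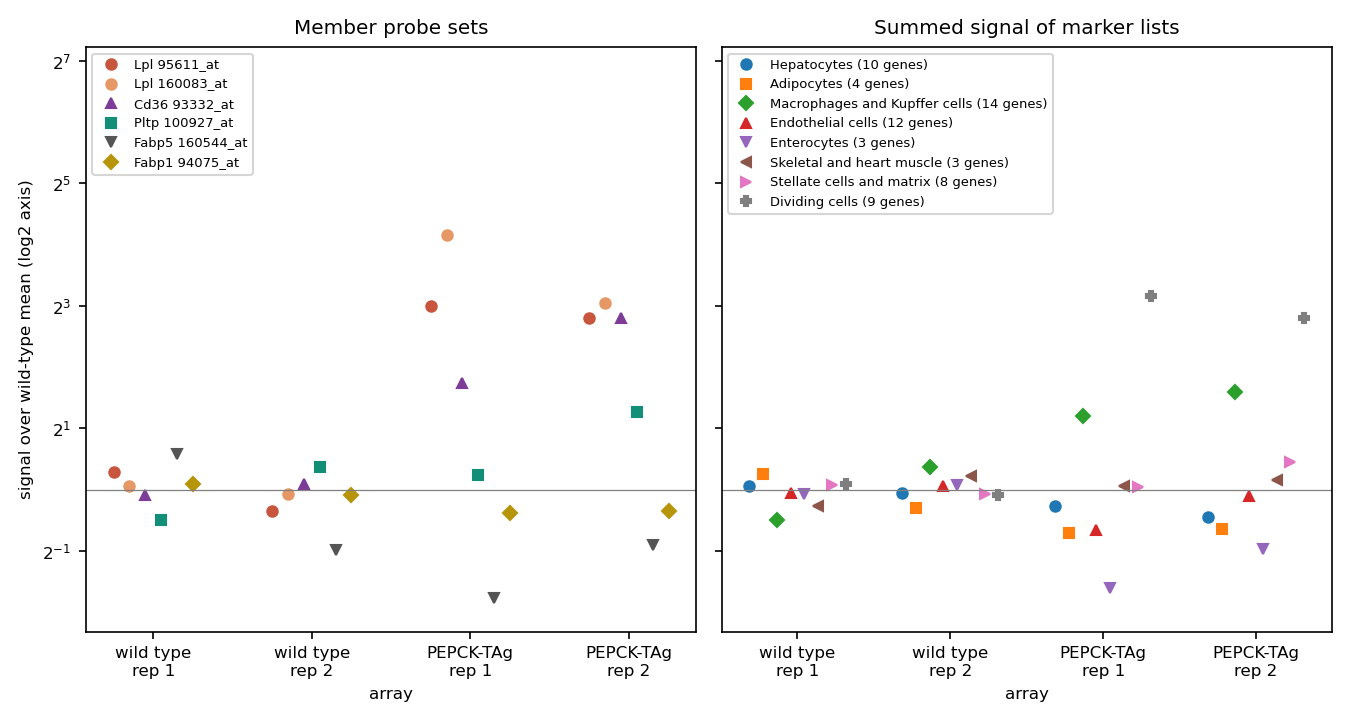
Signal on each of the 4 arrays divided by the mean of the wild-type arrays, on a log2 axis, for 6 member probe sets (left) and for the summed signal of 8 marker lists with the number of measured genes (right). In PEPCK-TAg the macrophage sum stood at 2.29 and 3.02 times the wild-type mean, while adipocyte, muscle and endothelial sums stayed between 0.61 and 1.12 times. The sum of dividing-cell genes stood at 8.95 and 6.99 times. It includes Mki67, Top2a, Cdk1 and Birc5, tested only through their PEPCK-TAg signals, so its size is not read as a result.

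Cd36 takes up long-chain fatty acids and oxidised lipoprotein and is abundant in macrophages, fat, muscle and capillary endothelium, with little in the liver of lean mice. Its probe set 93332_at read 10.4 and 11.7 in wild type against 37.1 and 77 on PEPCK-TAg replicates 1 and 2. The groups did not overlap. With no filter this held for 50% of all 12422 probe sets and, with PEPCK-TAg above, for 26.5%. The mean of all 4 arrays lay under the lowest signal tested, and the PEPCK-TAg arrays differed by 2.08-fold. With no filter on dim probe sets the log2 change was 1.48 ± 0.35 (SE), with a limma adjusted p of 0.0903 (Benjamini-Hochberg), and it ranged from 1.06 without PEPCK-TAg replicate 2 to 1.90 without PEPCK-TAg replicate 1. The other set, 161704_r_at, of a kind designed under relaxed rules, gave 0.9 to 1.2 on all arrays. The part of macrophages in the values of 93332_at was not tested.

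Among other genes of fatty acid uptake and activation, 11 of 20 were measured, 0 rose and 2 fell, beside 6.83% and 3.01% of all genes. Slc27a5, which activates bile acids and fatty acids in hepatocytes, had 3486 and 3191 in wild type against 1575 and 1685 in PEPCK-TAg, with a log2 change of -1.03 (adjusted p = 0.00842, limma with Benjamini-Hochberg). Slc27a2, the transporter and very long-chain acyl-CoA synthetase, had 5052 and 6041 in wild type against 3276 and 3167 in PEPCK-TAg and fell by 0.78 (adjusted p = 0.0231, limma with Benjamini-Hochberg). The call of Slc27a2 was lost when wild-type replicate 2 or either of the PEPCK-TAg arrays was dropped. Msr1, a macrophage scavenger receptor in this list, had 81.2 and 143 in wild type against 164 and 279 in PEPCK-TAg (adjusted p = 0.147, limma with Benjamini-Hochberg), and the list median was -0.40.

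Fabp1, the liver fatty acid-binding protein, carries fatty acids through the hepatocyte cytosol. Its main probe set, 94075_at, read 10882 and 9635 in wild type against 7883 and 8004 in PEPCK-TAg, with means of 10259 ± 882 (SD, n = 2) and 7943 ± 85.5 (SD, n = 2). Both PEPCK-TAg arrays lay below both wild-type arrays, as for 26.3% of all tested probe sets. The log2 change of -0.37 ± 0.13 (SE; 95% interval -0.67 to -0.07) did not pass once adjusted over all probe sets (adjusted p = 0.126, limma with Benjamini-Hochberg). It was -0.04 with quantile normalization and with cyclic loess, so its size depended on the normalization. The dim second probe set, 162342_at, read 119 and 90.1 in wild type against 89.1 and 74.1 in PEPCK-TAg, a log2 change of -0.31 (95% interval -0.87 to 0.26; adjusted p = 0.474, limma with Benjamini-Hochberg).

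Fabp2, the binding protein named for the intestine, read 509 and 524 in wild type against 429 and 618 in PEPCK-TAg. The wild-type arrays lay between the PEPCK-TAg arrays, and the log2 change was -0.0037 (95% interval -0.50 to 0.49; adjusted p = 0.992, limma with Benjamini-Hochberg). Of 11 enterocyte markers 7 were on the array and 3 were measured, with summed signals of 4607 and 5132 in wild type against 1594 and 2483 in PEPCK-TAg. The 1 that fell was Apoa4, which liver also makes and the lipase list holds too. The microvillus gene Vil1 read 1.9 to 2.6 and the lactase gene Lct 18.2 to 30.9. Of the other measured markers, Anpep read 383 and 412 in wild type against 327 and 288 in PEPCK-TAg, and Krt20 80.8 and 52.1 against 42.2 and 90.1.

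Fabp4, the adipocyte and macrophage form, stood just above the filter at 56.0 and 53.8 in wild type against 72.1 and 53.5 in PEPCK-TAg. The groups overlapped and the log2 change was 0.15 (95% interval -0.50 to 0.80; adjusted p = 0.784, limma with Benjamini-Hochberg). Beside it 6 of 14 macrophage markers rose and 0 of 4 adipocyte markers passed, and the part of either cell type in its values was not tested.

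Fabp5, the form first known from skin and made in many cell types, was the least even of the members. It read 894 and 301 on wild-type replicates 1 and 2, against 176 and 318 on PEPCK-TAg replicates 1 and 2. Only wild-type replicate 1 stood apart, and the groups overlapped. The log2 change of -1.10 ± 0.50 (SE; 95% interval -2.30 to 0.10) did not pass (adjusted p = 0.223, limma with Benjamini-Hochberg). Leaving out wild-type replicate 1 made it -0.33, and leaving out wild-type replicate 2 made it -1.86, which passed (adjusted p = 0.636 and 0.0354, limma with Benjamini-Hochberg). Wild-type replicate 1 therefore set much of its size.

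In the wider list of lipid-binding proteins 8 of 20 genes were measured. Of these 1 rose and 2 fell, beside 6.83% and 3.01% of all genes. The riser was Fabp7, a family member known from brain, from 70.8 ± 23.4 (SD, n = 2) in wild type to 216 ± 47.5 (SD, n = 2) in PEPCK-TAg, a log2 change of 1.46 ± 0.27 (SE; adjusted p = 0.0225, limma with Benjamini-Hochberg). Leaving out wild-type replicate 1 or PEPCK-TAg replicate 2 ended its call (adjusted p = 0.0596 and 0.0799, limma with Benjamini-Hochberg). The retinol carrier Rbp4 had 10775 and 9803 in wild type against 6869 and 6355 in PEPCK-TAg, and the phospholipid transfer protein gene Stard10 4537 and 4931 against 2621 and 2684. They fell by 0.64 and 0.83 on the log2 scale (adjusted p = 0.0278 and 0.0147, limma with Benjamini-Hochberg). The call of Rbp4 was lost without wild-type replicate 1, and those of both genes without either PEPCK-TAg array. With quantile normalization the change of Rbp4 was -0.33 and did not pass. Fabp3, the heart and muscle form, was too dim to be tested at 13.1 to 23.6, and the median of the 8 was -0.33.

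Plin2 coats cytosolic lipid droplets and rises in many cells when they load lipid. It read 4897 and 6784 on wild-type replicates 1 and 2, against 4595 and 6172 on PEPCK-TAg replicates 1 and 2, so that the arrays of a group differed more than the group means of 5840 ± 1335 (SD, n = 2) and 5383 ± 1114 (SD, n = 2). The log2 change was -0.11 (95% interval -0.62 to 0.39; adjusted p = 0.788, limma with Benjamini-Hochberg), and its sign turned with quantile normalization (0.17) and cyclic loess (0.15). No direction is given for it.

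Of 25 other genes of droplets and triglyceride assembly 13 were measured, with a median of -0.27. Of these 0 were higher and 2 lower, beside 6.83% and 3.01% of all genes. Cideb, a droplet protein needed for very low-density lipoprotein lipidation, fell from 2628 ± 187 (SD, n = 2) to 1651 ± 18.6 (SD, n = 2). Lpin1, a phosphatidate phosphatase on the way to triglyceride, fell from 386 ± 6.15 (SD, n = 2) to 216 ± 6.65 (SD, n = 2). Their log2 changes were -0.66 and -0.80 (adjusted p = 0.0345 and 0.0286, limma with Benjamini-Hochberg), and each call was lost in all 4 fits that left out 1 array. Gpam, which starts glycerolipid synthesis, and Mttp, which loads triglyceride onto apolipoprotein B, had log2 changes of -0.94 and -0.92 that did not pass (adjusted p = 0.0549 and 0.0668, limma with Benjamini-Hochberg).

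Fabp1, Plin2 and Cd36 are textbook targets of the fatty acid receptors called PPARs, which bind with RXR to a direct repeat of AGGTCA spaced by 1 base. The 250 bases before their annotated starts are shown to compare how far each carries that element, from RefSeq on GRCm38.p6, written 5′ to 3′ on the strand of the gene. They lie at chr6:71199629-71199878 (plus strand), chr4:86670060-86670309 (minus strand) and chr5:17835897-17836146 (minus strand). Capitals mark AGGTCA on either strand. They also mark TATAAA and the letters AGGNCA where these come as a pair with 1 base in between.
Fabp1: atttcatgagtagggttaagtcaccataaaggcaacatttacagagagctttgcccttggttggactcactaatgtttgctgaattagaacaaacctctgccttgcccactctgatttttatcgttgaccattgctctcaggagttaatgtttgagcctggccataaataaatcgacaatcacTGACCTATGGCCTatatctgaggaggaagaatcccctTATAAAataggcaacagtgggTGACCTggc
Plin2: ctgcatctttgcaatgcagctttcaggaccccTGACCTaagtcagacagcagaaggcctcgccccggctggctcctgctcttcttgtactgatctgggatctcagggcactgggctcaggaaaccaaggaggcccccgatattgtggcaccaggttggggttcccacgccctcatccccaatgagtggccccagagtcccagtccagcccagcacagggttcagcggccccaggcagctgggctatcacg
Cd36: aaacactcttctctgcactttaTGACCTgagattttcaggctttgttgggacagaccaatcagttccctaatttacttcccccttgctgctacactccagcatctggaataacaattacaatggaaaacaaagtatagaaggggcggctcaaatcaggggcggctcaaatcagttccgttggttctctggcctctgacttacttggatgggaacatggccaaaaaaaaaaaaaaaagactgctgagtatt

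Windows of this kind were matched for 6 of the 10 members: Cd36, Fabp1, Fabp2, Lipc, Plin2 and Pltp. Fabp1 held the spaced repeat as TGACCTATGGCCT, at positions -67 to -55 from the start, overlapping 1 of its AGGTCA matches, and TATAAA from -30. The repeat of AGGNCA, whose free bases were set after the windows had been read, was present in 0.338% of all 32851 windows. The strict repeat of AGGTCA with 1 base between was found in 0.0335% of windows and in none of the members. Plin2 and Cd36 each held 1 AGGTCA, on the opposite strand, at -218 and -228, as 14% of windows held at least 1, and TATAAA was present in 12.4%. A match describes the letters only. Signals of different probe sets are not on a common scale, so the windows are not set against signal levels.

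Ppara, the PPAR of hepatocytes, had 319 and 339 in wild type against 191 and 225 in PEPCK-TAg, a log2 change of -0.63 that did not pass (adjusted p = 0.0713, limma with Benjamini-Hochberg). Pparg, the form of fat cells and macrophages, had 37.0 and 117 in wild type against 112 and 218 in PEPCK-TAg, with overlapping groups (adjusted p = 0.221, limma with Benjamini-Hochberg). Of 17 measured genes among 25 nuclear receptors and partners of lipid handling, 0 rose and 1 fell, beside 6.83% and 3.01% of all genes. The 1 that fell was Nr1h4, the bile acid receptor, from 1079 ± 157 (SD, n = 2) to 557.5 ± 66.6 (SD, n = 2). Its fall was 0.93 on the log2 scale (adjusted p = 0.0255, limma with Benjamini-Hochberg). The call was lost when wild-type replicate 1 or PEPCK-TAg replicate 2 was left out (adjusted p = 0.0897 and 0.0909, limma with Benjamini-Hochberg), and the list median of -0.15 became 0.21 without PEPCK-TAg replicate 2.

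Scarb1, the receptor that takes cholesterol ester from high-density lipoprotein, read 2053 and 1509 in wild type against 1523 and 1357 in PEPCK-TAg. Wild-type replicate 2 lay between the PEPCK-TAg arrays. The log2 change of -0.29 (95% interval -0.74 to 0.16) did not pass (adjusted p = 0.390, limma with Benjamini-Hochberg). Pdzk1, the scaffold that keeps this receptor at the hepatocyte surface, had 730 and 786 in wild type against 481 and 391 in PEPCK-TAg. It fell by 0.79 on the log2 scale (adjusted p = 0.0386, limma with Benjamini-Hochberg), although its call was lost in all 4 fits that left out 1 array.

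Pltp, the phospholipid transfer protein, read 182 and 335 on wild-type replicates 1 and 2, against 303 and 620.5 on PEPCK-TAg replicates 1 and 2. The lower PEPCK-TAg array lay inside the wild-type range. The means were 258 ± 108 (SD, n = 2) and 462 ± 224 (SD, n = 2), and the log2 change of 0.78 ± 0.39 (SE; 95% interval -0.16 to 1.72) did not pass (adjusted p = 0.263, limma with Benjamini-Hochberg). Dropping PEPCK-TAg replicate 2 gave 0.28, dropping wild-type replicate 1 gave 0.37, and dropping PEPCK-TAg replicate 1 gave 1.28. The part of macrophages in the values of Pltp was not tested.

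Among 25 other genes of lipoprotein receptors and high-density lipoprotein remodelling 16 were measured, with a median of -0.38. Where 6.83% of all genes were higher and 3.01% lower, 0 of these were higher and 2 lower. Beside Pdzk1 this was Apoa2, an apolipoprotein of high-density lipoprotein, which fell from 6546 ± 31.4 (SD, n = 2) to 3912 ± 66.3 (SD, n = 2), by 0.74 on the log2 scale (adjusted p = 0.0166, limma with Benjamini-Hochberg). Its other, dim probe set had a log2 change of -0.14. With the mean of its probe sets the change was -0.44 and did not pass, and the call was also lost when wild-type replicate 1 or either of the PEPCK-TAg arrays was dropped. Apoa1, the main protein of the particle, had 15160 and 12806 in wild type against 9772 and 9645 in PEPCK-TAg (adjusted p = 0.0575, limma with Benjamini-Hochberg). Abcg1, a cholesterol exporter of macrophages, had 222 and 294 in wild type against 371 and 456 in PEPCK-TAg (adjusted p = 0.101, limma with Benjamini-Hochberg), and Abca1 had a log2 change of 0.07 (adjusted p = 0.853, limma with Benjamini-Hochberg).

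**Figure D4:**
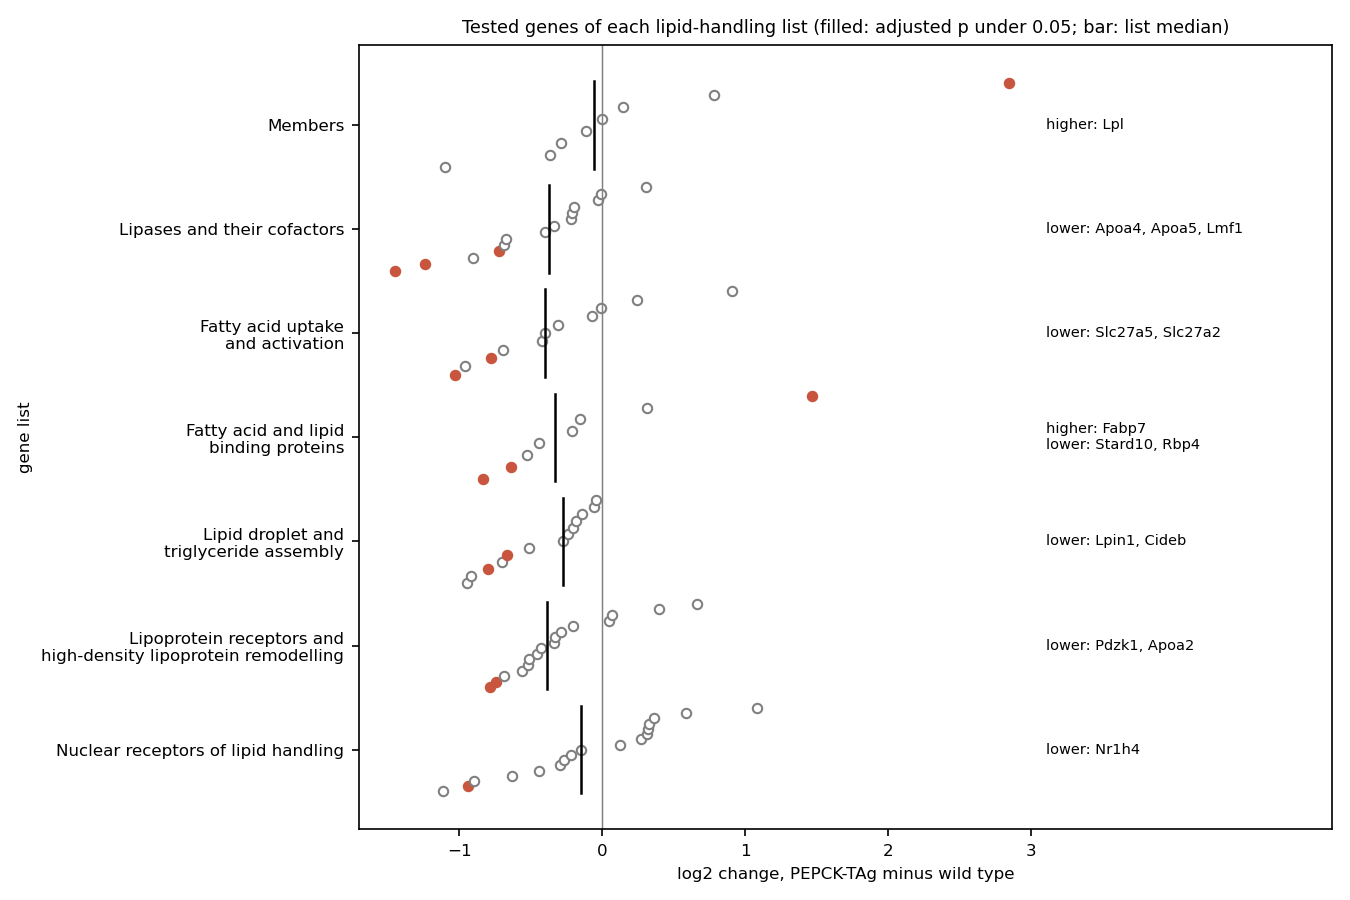
Log2 change of PEPCK-TAg against wild type for each tested gene of the members and of the 6 lipid-handling lists, with filled points past a limma Benjamini-Hochberg adjusted p of 0.05, named at the right, and a bar at each list median. Lpl stands alone at 2.85 among the members, Fabp7 is the called rise of the lists, and the medians of the 6 lists lie between -0.40 and -0.15.

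Over the 6 lists together 79 of 138 genes were measured, of which 1 rose and 12 fell, where 6.83% and 3.01% of all genes did. Their median log2 change was -0.31, beside 0.01 for all genes. The count of falls was 7 when wild-type replicate 2 was dropped, and 6 and 5 when PEPCK-TAg replicates 1 and 2 were, each in turn. The rise of Fabp7 was lost as given above. Apoa5 and Slc27a5 kept their calls in all 14 alternatives. With quantile normalization Slc27a2, Rbp4, Cideb and Apoa2 lost theirs, and with cyclic loess Slc27a2, Rbp4 and Cideb. Hepatocyte markers, read beside these mostly hepatocytic genes, had a median of -0.35, with 0 of 10 called by limma, 0 higher and 5 lower at an unadjusted p under 0.05, and summed signals of 73239 and 67111 in wild type against 58418 and 51353 in PEPCK-TAg. With quantile normalization the hepatocyte median was -0.07, beside -0.05 for all genes tested, and the medians of the 6 lists lay between -0.51 and -0.25. With cyclic loess the hepatocyte median was -0.09, beside 0.002 for all genes tested, and the list medians lay between -0.47 and -0.21. The part of hepatocyte RNA in the lists was not tested.

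**Figure D5:**
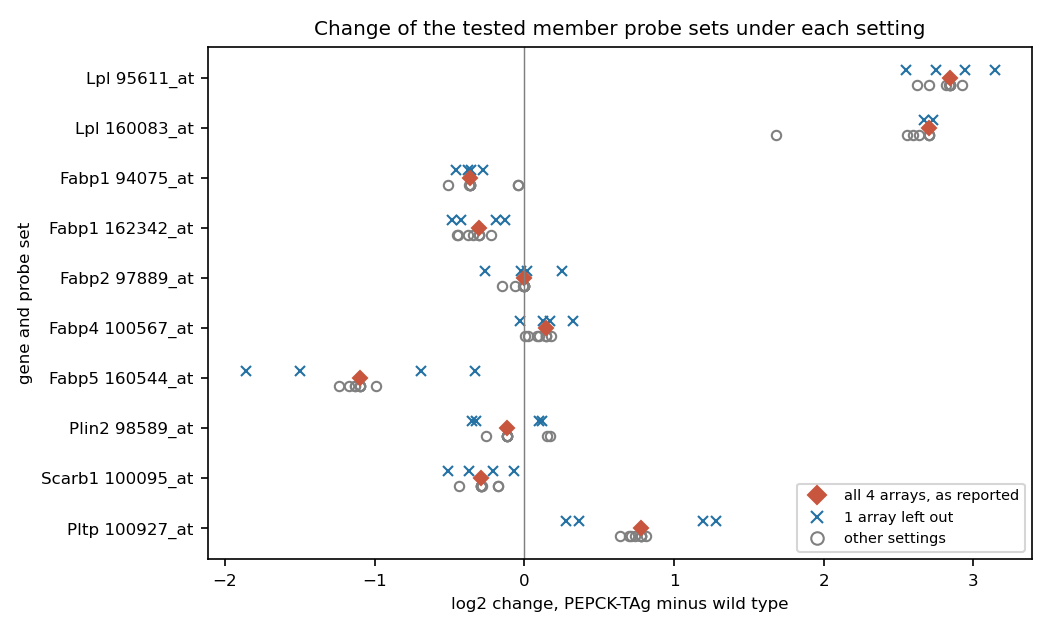
Log2 change of each of the 10 tested member probe sets with all 4 arrays (diamonds), with 1 array left out (crosses) and under the other settings (circles). Lpl 95611_at stays between 2.55 and 3.14, Fabp5 spreads from -1.86 to -0.33 and Pltp from 0.28 to 1.28, and Plin2, Fabp2 and Fabp4 fall on either side of 0.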

How the data were processed

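Liver RNA of 2 wild-type and 2 PEPCK-TAg arrays was compared, with groups and replicate numbers from the sample titles. The deposited values are MAS5 intensity signals on a linear scale, made by the authors, per the submitters' processing notes, and equal in trimmed mean. Which version and scaling target they used is not given in the sources used here. Per the file headers, all 4 arrays shared chip lot, fluidics station and scan day, so no batch could be tested. Symbols came from the platform annotation: of 12422 probe sets 10833 had 1 symbol, 396 several and 1193 none. Signals were taken as log2(signal + 13), with 13 being 5% of the trimmed mean, and kept where the mean log2 value reached the 40th percentile (7453 probe sets). Two-sided tests of PEPCK-TAg against wild type used limma 3.58.1, run in R 4.3.3 (eBayes with trend, 2 residual and 4.61 prior degrees of freedom, Benjamini-Hochberg threshold 0.05). The procedure was tested on simulated data. The number of arrays limits the precision. A list gene was read by its brightest probe set. The members and lists were chosen with earlier results of these data known. From each pathway list the called genes were named, at most 4, and from marker lists those needed to give a level. Other list genes were chosen after their values were seen. Alternatives were the offset, normalization, filter, variance trend, a replicate block, each array left out and the mean of a gene's probe sets.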

Additional observations from a re-analysis of the deposited data

How the results depend on the processing

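Of 124 alternative values of the 10 tested member probe sets, 115 kept their direction and their side of the threshold. Among them were all 13 of Lpl 95611_at. The 115 also hold the 9 of Lpl 160083_at, which was tested only through its PEPCK-TAg signal, so these 9 are not read as stability. Member probe sets called higher numbered 2, and 1 with an offset of 1 or the filter at the 60th percentile, where 160083_at was too dim to be tested, 3 with the replicate block, where Pltp was added, and 1 to 2 with 1 array left out. Those called lower numbered 0, and 0 to 1 with 1 array left out. With 1 array left out Fabp2 ranged from -0.26 to 0.25, Fabp4 from -0.030 to 0.33, Fabp5 from -1.86 to -0.33 and Plin2 from -0.35 to 0.12. Plin2 was 0.17 with quantile normalization and 0.15 with cyclic loess.

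Of all probe sets 477 were called higher and 229 lower. With 1 array left out these were 288 to 420 and 110 to 143, and the lower count was 409 with median centring, 105 with no filter and 117 with no variance trend. Median centring moved the median change of all probe sets to -0.14 and called 403 higher. List genes called lower numbered 12, and 21 with median centring, 4 with no filter, 5 with no variance trend and 5 to 8 with 1 array left out. List genes called higher numbered 1, and 0 with no filter or the filter at the 60th percentile and 0 to 1 with 1 array left out. Replicate numbers do not pair the arrays by the labels, and deviations of same-numbered arrays correlated with r = 0.181 across probe sets. With the replicate block Pltp was 0.78 with an adjusted p of 0.0234, 444 probe sets were lower, and 24 list genes were lower and 4 higher. The cause of these shifts was not tested. The signals of Cd36 and of the second Lpl probe set in wild type were too near the floor for their fold to be read closely.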
